A study of Mus musculus with 36 samples.

Results

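The genes described are 10 of the 55487 in the deposited count table: Gnb1, Gnb2, Gnb4 and Gnb5, which encode G protein beta subunits, and Prkaca, Prkacb, Prkar1a, Prkar1b, Prkar2a and Prkar2b, which encode subunits of protein kinase A (PKA). They were selected by gene name, with earlier results of these libraries known, the monosome comparison of the T532M cross among them. All 10 passed the filter on low counts in both crosses.

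Cortices of female mouse embryos at E14.5, pooled by 2 of the same genotype, were lysed and spun through a sucrose gradient, and RNA was sequenced from the lysate before loading (input), from the fractions with a lone ribosome per RNA (monosome) and from those with several (polysome). The 36 libraries came from 12 pools, 3 in each genotype of the LoF and the T532M cross. In the LoF cross, controls were Ddx3x lox/+ without Cre and conditional heterozygotes (cHet) were Emx1-Cre/+;Ddx3x lox/+. In the T532M cross, controls were Emx1-Cre/+ and cHet were Emx1-Cre/+;Ddx3x-T532M lox/+, so Cre was in both genotypes of that cross and only in the cHet of the other. Ddx3x encodes an X-linked RNA helicase that takes part in translation initiation. The Cre is active in dorsal telencephalic progenitors and the cells they give rise to, and other cells of a pool keep their alleles.

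A heterotrimeric G protein holds an alpha subunit and a beta-gamma pair. A ligand-bound receptor makes the alpha subunit exchange GDP for GTP, after which alpha and beta-gamma act apart on ion channels, adenylyl cyclases and other effectors. Stimulatory alpha subunits raise cAMP through adenylyl cyclase and inhibitory ones lower it. PKA is a tetramer of a regulatory dimer and catalytic subunits: cAMP binds the regulatory subunits, which release the catalytic subunits to phosphorylate targets such as the transcription factor CREB. In the embryonic brain PKA restrains Hedgehog signalling, and beta-gamma acts on spindle orientation in cortical progenitors.

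Gnb1 and Gnb4 encode closely related beta subunits. Prkaca and Prkacb encode the alpha and beta catalytic subunits, and Prkar2a and Prkar2b the type II alpha and beta regulatory subunits. In each of these kinase pairs the first gene differed between genotypes in T532M monosomes without overlap and the other overlapped, so the start codon windows, where ribosomes begin translation, are shown for these 4 genes, from the GENCODE M21 transcripts on GRCm38, 5′ to 3′. The capitals mark the ATG, with 15 bases of 5′ UTR before it and 3 coding bases after it.
Prkaca: cgcgacgccgccgcgATGggc
Prkacb: gcggactcccgggtcATGggg
Prkar2a: tcggacgtcgcaggcATGagc
Prkar2b: gcgtgcacgggcaggATGagc
The ATG of Prkaca lies at chr8:83973187-83973189 on the plus strand and that of Prkacb at chr3:146812681-146812683 on the minus strand. The ATG of Prkar2a lies at chr9:108692457-108692459 (plus) and that of Prkar2b at chr12:32061080-32061082 (minus).

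Prkaca has a 5′ UTR of 194 nucleotides with a GC content of 83.0%, above that of 97.2% of the 13997 protein-coding genes compared, whose median was 64.1%. The 5′ UTR of Prkar2a, of 314 nucleotides, had 79.0% GC, and 93.1% of genes were lower. Prkar2b had 78.5% over 214 nucleotides, Prkar1b 76.1% over 138, Prkacb 75.8% over 277 and Gnb4 74.2% over 186. Gnb1 had 71.5% and Gnb2 65.3%, while Prkar1a (57.5%) and Gnb5 (54.9%) lay below the median. Both members of each kinase pair were thus above the median. The coding sequences of all 10 genes, at 1023 to 1251 nucleotides, were shorter than the median of 1389.

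In the input of the controls, Gnb1 had the highest level per kilobase of transcript, with 346 ± 3.95 CPM per kb (CPM are read counts scaled to a common library size) in the LoF cross and 351 ± 13.9 in the T532M cross (SD, n = 3). Prkar1a, the type I alpha regulatory subunit, and Prkaca followed at 97.9 and 91.5 CPM per kb in the LoF controls and at 93.0 and 94.6 in the T532M controls, where their order turned. Prkacb had 25.9 and 24.4, Prkar2b 20.7 and 18.5, Prkar1b, the type I beta regulatory subunit, 20.3 and 21.2, and Prkar2a 18.7 and 16.7. Gnb5, the beta subunit that pairs with RGS proteins of the R7 family in place of a gamma subunit, had 13.9 and 14.4, and Gnb4 4.72 and 4.58. Counts cover whole gene spans with introns while the length is that of the transcript, so this order is approximate. Gnb2 lay lowest, but 95.0% of its span (chr5:137528127-137533510, minus strand) overlaps the annotated gene Epo on the same strand and read pairs on both were not counted. Its 5 to 91 read pairs per library leave its level uncertain.

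**Figure D1:**
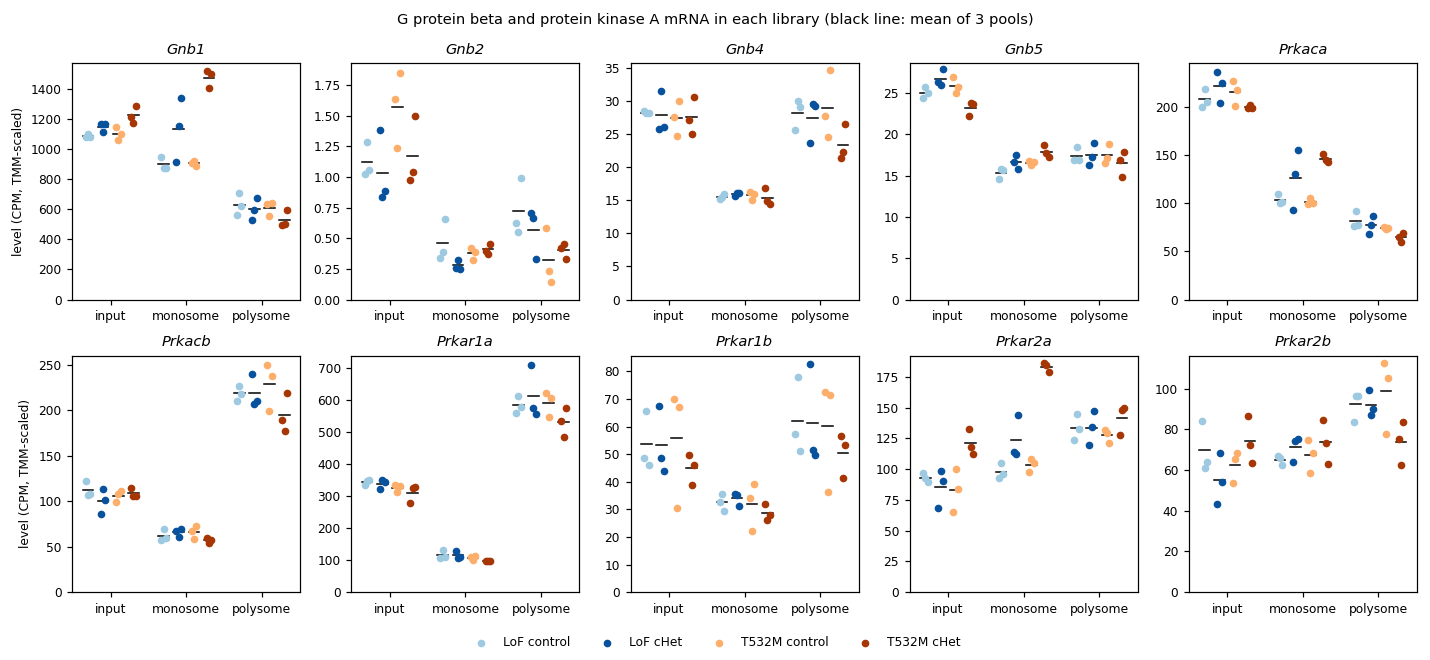
Level of each gene in every library, in TMM-scaled CPM, by fraction. Each point is 1 pool and each black line the mean of 3 pools. Gnb1, Prkaca and Prkar2a of the T532M cHet lie above the controls in the monosome fraction (1404 to 1521 against 885 to 924 CPM for Gnb1), and Prkacb and Prkar1a are highest in the polysome fraction of every group.

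Libraries held 36999365 to 57935512 read pairs in genes, and no libraries were identical. No label ties pools to litters or days, so p-values measure only the spread between the libraries of a group, each from another pool. In comparisons between fractions the main fit did not pair the libraries of a pool. Ddx3x, the targeted gene, did not pass the test in any of the 6 genotype comparisons. In LoF monosomes it had 284, 344 and 281 CPM in controls and 255, 178 and 198 in cHet (log2 difference -0.53 ± 0.22 SE, edgeR adjusted p = 1.00). In T532M input it had 50.1, 145 and 111 CPM in controls and 236, 198 and 167 in cHet (0.97 ± 0.27, edgeR adjusted p = 0.264). The T532M cHet input libraries thus lay above their controls without passing. So did the polysome libraries, at 3047, 3466 and 2268 CPM in controls and 4117, 5860 and 5261 in cHet. In T532M monosomes the groups overlapped, at 292 to 346 CPM in controls and 275 to 345 in cHet.

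In the monosome fraction of the T532M cross, Gnb1, Prkaca and Prkar2a were higher in cHet, and the libraries of the groups did not overlap. These values were known when the genes were chosen and are given as a description. Gnb1 (ENSMUSG00000029064.15, chr4:155491361-155559269, plus strand), with 905, 924 and 885 CPM in controls, had 1521, 1404 and 1498 in cHet, a log2 difference of 0.70 ± 0.11 (SE). Its 3 cHet monosome libraries were the highest of all 36 libraries for this gene.

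Prkaca (ENSMUSG00000005469.10, chr8:83972993-83996443, plus strand) had 99.0, 105 and 101 CPM in control monosomes and 151, 145 and 143 in cHet monosomes, a log2 difference of 0.53 ± 0.09. Prkar2a (ENSMUSG00000032601.13, chr9:108689314-108750436, plus strand) had 97.2, 108 and 105 CPM in controls and 186, 185 and 179 in cHet. Its log2 difference, 0.82 ± 0.13, was the largest of the 10 genes. The cHet libraries of each gene lay close together and well apart from the controls.

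The other genes differed less. Gnb5 had 16.7, 16.3 and 16.6 CPM in T532M control monosomes and 18.7, 17.7 and 17.3 in cHet, a log2 difference of 0.11 ± 0.09 with no overlap. Prkar1a went the other way, with 111, 101 and 111 CPM in controls and 97.9, 97.7 and 97.9 in cHet, -0.14 ± 0.10, also with no overlap. For Gnb2, Gnb4, Prkacb, Prkar1b and Prkar2b the groups overlapped, and log2 differences ran from -0.21 for Prkacb to 0.13 for Prkar2b.

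With edgeR's quasi-likelihood test and an adjusted p under 0.05, 3 of the 10 genes were called higher and 0 lower, beside 0.976% of all 18243 genes called higher. Groups did not overlap, with cHet above, in 4 of the 10, beside 8.93% of all genes, and with cHet below in 1 (Prkar1a), beside 12.7%. As the genes were chosen with this contrast known, nothing is read from these shares. All 3 calls held without control pool 2 and without cHet pool 3. Leaving out control pool 3 left 0 of the 3 calls (edgeR adjusted p = 0.1095 for Gnb1, 0.131 for Prkaca and 0.0847 for Prkar2a), leaving out control pool 1 left only Prkar2a, and leaving out cHet pool 2 only Gnb1. Without cHet pool 1, 2 calls were left, Gnb1 and Prkar2a. Over the 6 omissions the log2 difference stayed between 0.68 and 0.74 for Gnb1, 0.50 and 0.55 for Prkaca and 0.78 and 0.86 for Prkar2a.

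**Figure D2:**
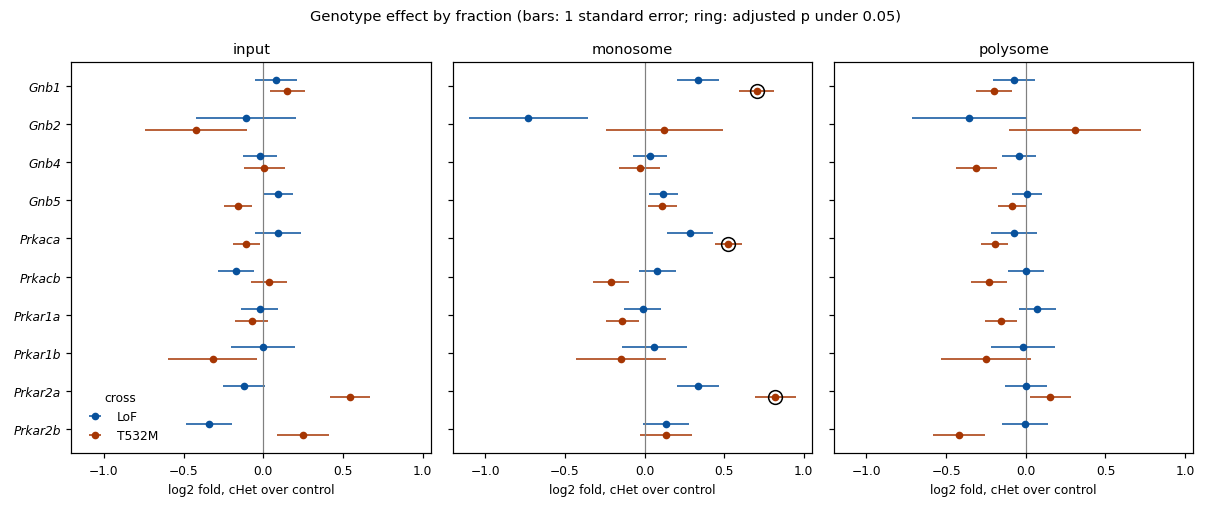
Log2 fold of cHet over control for each gene in input, monosome and polysome, in the LoF (blue) and T532M (brown) crosses. Bars are 1 standard error and rings mark an adjusted p under 0.05: the 3 rings are on Gnb1 (0.70), Prkaca (0.53) and Prkar2a (0.82) in T532M monosomes, where the LoF values for the same genes are 0.34, 0.29 and 0.33.

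The same comparison in the LoF cross used libraries from other pools. Gnb1 had 947, 874 and 877 CPM in LoF control monosomes and 912, 1156 and 1339 in cHet, a log2 difference of 0.34 ± 0.13 (edgeR adjusted p = 1.00). Prkaca had 109, 101 and 101 CPM in controls and 93.1, 130 and 156 in cHet, 0.29 ± 0.14 (edgeR adjusted p = 1.00). Cortices of cHet pool 1 gave values within or below the controls for both genes, and cHet pools 2 and 3 values above them.

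Prkar2a had 92.9, 105 and 95.9 CPM in LoF control monosomes and 114, 112 and 144 in cHet, with no overlap, 0.33 ± 0.13 (edgeR adjusted p = 1.00). Gnb5 was the other gene with every cHet library above every control, at 14.58, 15.77 and 15.62 against 16.59, 17.44 and 15.84 CPM (0.12 ± 0.09). Groups thus did not overlap, with cHet above, for 2 of 10, beside 5.57% of all genes, and with cHet below for 1, beside 4.97%. The other 6 differences ran from -0.73 ± 0.37 for the sparsely counted Gnb2, whose cHet lay below the controls, to 0.13 for Prkar2b.

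None of the 10 passed in LoF monosomes by edgeR (2 with raw, that is unadjusted, p under 0.05, 0 by DESeq2), where 0.0108% of all genes were called. Without LoF cHet pool 1, Gnb1 (0.47) and Prkaca (0.46) passed with an edgeR adjusted p of 0.0492 each, and 180 genes in all were called. This was the only 1 of the 6 omissions in which either gene passed, and Prkar2a passed in 0. The direct test of the LoF effect minus the T532M effect in monosomes called 0 of the 10 (2 with raw p under 0.05, 0 by DESeq2) and 0% of all genes (0 of 19121, with 1279 with raw p under 0.05 and 47 by DESeq2). The differences were -0.37 ± 0.16 for Gnb1, -0.24 ± 0.17 for Prkaca and -0.49 ± 0.19 for Prkar2a. They take in the T532M monosome libraries and are a description, and LoF and T532M effects are therefore not shown to differ. In each fraction this test cannot tell the allele from the Cre that only the LoF controls lack.

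Cell type markers were summed in the same monosome libraries, since in bulk cortex fewer cells of a type and less RNA per cell cannot be told apart. In the T532M cross, the 6 markers of cortical excitatory neurons summed to 1584 to 1916 CPM in controls and to 1457 to 1560 in cHet, with no overlap, while 0 of the 6 passed. The 7 dorsal progenitor markers summed to 624 to 755 and 586 to 763 CPM, with Sox2 listed at 0 in every library. The 7 ventral forebrain and interneuron markers gave 206 to 307 and 170 to 352, and 5 erythroid markers 276 to 338 and 269 to 360. The 6 choroid plexus markers gave 1.86 to 3.69 CPM in controls and 1.47 to 38.9 in cHet, with the highest sum in cHet pool 1. Mitochondrial genes took 3.82 to 6.76% of read pairs in controls and 3.99 to 6.90% in cHet. The gene model CT010467.1, over ribosomal RNA, took 0.42, 0.55 and 0.55% in controls and 0.59, 0.66 and 0.90% in cHet, with no overlap. Its part in the Gnb1, Prkaca and Prkar2a values was not tested.

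In LoF monosomes the excitatory neuron markers summed to 1553 to 1841 CPM in controls and 1476 to 2199 in cHet, and cHet pool 1, low in Gnb1 and Prkaca, had the lowest sum. Erythroid markers summed to 531 to 551 CPM in LoF controls and 221 to 466 in cHet, again with no overlap. The remaining marker sums, of meninges, microglia and endothelium, overlapped between genotypes in T532M monosomes. The part of cell composition in the monosome values was not tested.

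In the input of the T532M cross, Prkar2a had 64.8, 100 and 83.8 CPM in controls and 133, 118 and 112 in cHet. Every cHet library lay above every control, and the log2 difference was 0.54 ± 0.13 (edgeR adjusted p = 0.181). DESeq2 called this difference, and so did edgeR without the filter on low counts. In the authors' deposited table for input, Prkar2a has a log2 fold change of 0.52 with an adjusted p of 0.0229. The cHet libraries thus stood above the controls before fractionation as well, and the call depended on the test. In the same input libraries the excitatory neuron markers summed to 1981 to 2467 CPM in controls and 1717 to 1960 in cHet, also with no overlap, and their part in the Prkar2a value was not tested.

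Gnb1 had 1150, 1063 and 1098 CPM in T532M control input and 1215, 1177 and 1284 in cHet, 0.15 ± 0.11, with no overlap. Prkaca had 227, 201 and 218 against 199, 202 and 199 CPM, -0.11. Gnb5 lay lower in cHet with no overlap, at 26.9, 25.04 and 25.7 against 22.2, 23.7 and 23.7 CPM, -0.16. Groups did not overlap, with cHet above, for 2 of the 10 (Gnb1 and Prkar2a), beside 6.11% of all genes. With cHet below this held for 1, Gnb5, beside 7.21%. In total 0 of the 10 passed by edgeR (1 with raw p under 0.05), beside 0.00548% of all genes. DESeq2 called 1 of the 10, where it called 95 of all genes higher and 28 lower.

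In T532M polysomes the log2 difference was negative for 8 of the 10 genes, and none passed the threshold. Gnb1 had 635, 555 and 640 CPM in controls and 493, 503 and 597 in cHet (-0.20 ± 0.11, edgeR adjusted p = 0.678). Prkaca had 74.9, 73.2 and 74.4 CPM in controls and 65.4, 59.97 and 68.7 in cHet (-0.20 ± 0.09, edgeR adjusted p = 0.600). It was the only 1 of the 10 with every cHet library below every control, beside 5.8% of all genes. Prkar2b, the type II subunit abundant in brain, had 113, 78.0 and 105 against 75.2, 62.8 and 83.5 CPM (-0.42, edgeR adjusted p = 0.570), and Gnb4 27.8, 24.6 and 34.8 against 21.4, 22.3 and 26.6 (-0.31, edgeR adjusted p = 0.592).

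Prkar2a had the opposite sign, with 132, 129 and 121 CPM in T532M controls and 128, 148 and 150 in cHet (0.15). By edgeR, 0 of the 10 passed in T532M polysomes (3 with raw p under 0.05, 0 by DESeq2), beside 0% of all genes (0 genes, with 1444 with raw p under 0.05 and 3 by DESeq2). In LoF input 0 passed (1 with raw p under 0.05, 0 by DESeq2), beside 0% (1996 genes with raw p under 0.05, 81 by DESeq2), with differences from -0.34 for Prkar2b to 0.09 for Prkaca. In LoF polysomes 0 passed (0 with raw p under 0.05, 0 by DESeq2), beside 0% (600 and 0), with differences from -0.36 for Gnb2 to 0.07 for Prkar1a. The direct test of LoF minus T532M effects called 0 of the 10 in input by edgeR (2 with raw p under 0.05), beside 0.0105% of all genes. DESeq2 called 2 of the 10 there, where it called 96 of all genes higher and 654 lower. For Prkar2a the edgeR test gave -0.68 ± 0.19 (edgeR adjusted p = 0.0762) and for Prkar2b -0.61 ± 0.23 (edgeR adjusted p = 0.153). In polysomes it called 0 of the 10 (0 with raw p under 0.05, 0 by DESeq2), beside 0% (1068 and 4).

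The ratio of polysome to monosome level was next compared within pools. Gnb1 had log2 polysome over monosome ratios of -0.51, -0.73 and -0.47 in T532M controls and -1.63, -1.48 and -1.33 in cHet. Prkaca had ratios of -0.40, -0.52 and -0.44 in controls and -1.21, -1.28 and -1.05 in cHet. All 3 cHet pools lay below all 3 controls for both genes, and also for Prkar2a and Prkar2b. For Prkar2b the ratios were 0.594, 0.415 and 0.622 in controls and -0.173, -0.22 and 0.405 in cHet. The share of all genes without overlap in this ratio was not computed, so nothing is read from it. Prkar2a had 0.44, 0.25 and 0.20 in controls and -0.54, -0.32 and -0.26 in cHet, so in TMM-scaled values this mRNA was higher in polysomes than in monosomes in controls and lower in cHet; with library size alone the controls were negative as well.

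The change of the genotype effect from monosome to polysome in the T532M cross was -0.90 ± 0.16 for Gnb1, -0.72 ± 0.12 for Prkaca, -0.67 ± 0.18 for Prkar2a and -0.55 ± 0.23 for Prkar2b. The remaining values lay between -0.28 for Gnb4 and 0.18 for Gnb2. By edgeR 2 of the 10 were called lower, Gnb1 and Prkaca (adjusted p = 0.0486 each), beside 0.0603% of all genes. These values share the monosome libraries of the comparison by which the genes were known, so nothing is read from this share. Both calls were lost on leaving out any of the 6 pools, with RLE size factors, with scaling by library size alone and without the low-count filter, while DESeq2 kept both. Over the 6 omissions the change stayed between -0.99 and -0.83 for Gnb1 and between -0.79 and -0.68 for Prkaca. In the T532M cross 0 of the 10 were called for polysome over input (3 with raw p under 0.05, 0 by DESeq2), beside 0% of all genes (1113 and 0).

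In the LoF cross, with other pools, Gnb1 ratios were -0.75, -0.30 and -0.50 in controls and -0.79, -0.96 and -0.99 in cHet. Those of Prkaca were -0.51, -0.14 and -0.38 in controls and -0.44, -0.74 and -0.83 in cHet. Prkar2a had 0.41, 0.46 and 0.47 in controls and 0.071, 0.25 and 0.036 in cHet. The groups did not overlap for Gnb1 and Prkar2a and overlapped for Prkaca through cHet pool 1. For Gnb1 the nearest pools were at -0.75 (control pool 1) and -0.79 (cHet pool 1). As no share of all genes was computed for this ratio, nothing is read from the lack of overlap. The changes were -0.41 ± 0.19 for Gnb1, -0.36 ± 0.20 for Prkaca and -0.33 ± 0.19 for Prkar2a, and the other 7 lay between -0.14 and 0.37. By edgeR 0 of the 10 passed (1 with raw p under 0.05, 0 by DESeq2; adjusted p = 1.00 for each of the 3), beside 0% of all genes (561 and 0). For LoF polysome over input 0 passed (0 with raw p under 0.05, 0 by DESeq2), beside 0.0108%.

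**Figure D3:**
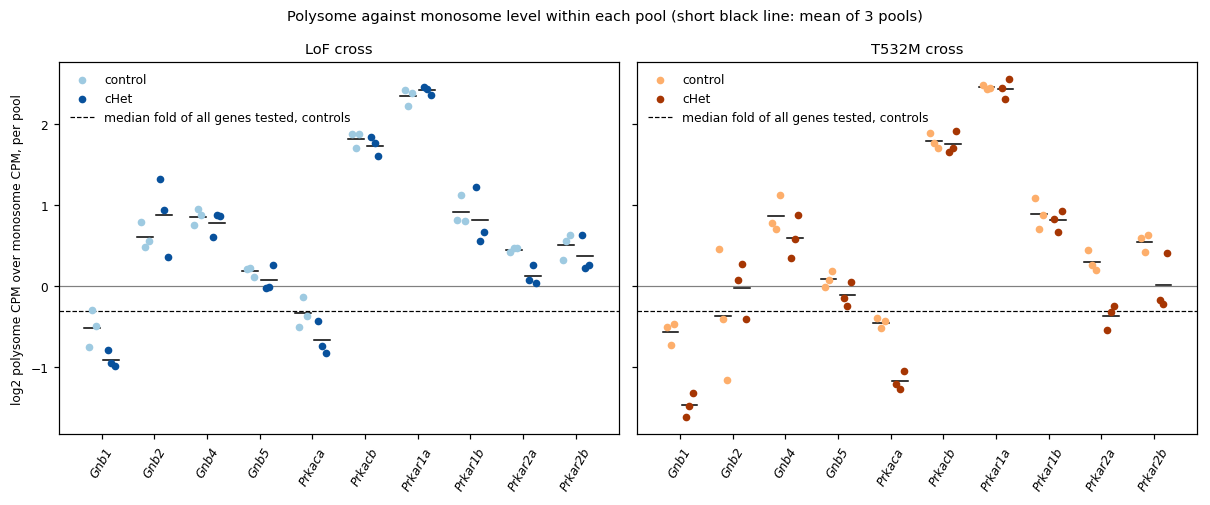
Log2 of polysome CPM over monosome CPM within each pool, for controls (light) and cHet (dark), with the LoF cross on the left and the T532M cross on the right. Points are pools, short lines means of 3 pools, and the dashed line is the median fold of all genes tested in controls (-0.31 in both crosses). The cHet points of Gnb1 lie below the controls in both crosses. They are at -0.79 to -0.99 in LoF, where the nearest control is -0.75, and at -1.33 to -1.63 in T532M. The share of all genes without overlap in this ratio was not computed. Prkar1a and Prkacb sit near the top in every pool. With scaling by library size alone all values would be lower, by about the shift of the median given in the text.

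The genotype effect in monosomes was also set against that in input. In the T532M cross the change was 0.63 ± 0.12 for Prkaca (edgeR adjusted p = 0.368), 0.55 ± 0.16 for Gnb1 (0.761 by the same test) and 0.28 ± 0.18 for Prkar2a (0.853). None of the 10 passed by edgeR (3 with raw p under 0.05), beside 0.00548% of all genes. DESeq2 called 2, Gnb1 and Prkaca, where it called 36 of all genes higher and 6 lower. In the authors' deposited table, whose monosome columns match a fold relative to input, Prkaca has a log2 fold change of 0.64 with adjusted p = 2.59e-13, Gnb1 0.56 with 0.000846 and Prkar2a 0.29 with 0.639. The T532M monosome difference thus stood beside an input difference of 0.15 for Gnb1, -0.11 for Prkaca and 0.54 for Prkar2a. In the LoF cross Prkar2a had 0.45 ± 0.19 (edgeR adjusted p = 0.946), and 0 of the 10 passed (2 with raw p under 0.05, 0 by DESeq2), beside 0% of all genes (936 and 0).

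The controls alone show how these mRNAs were spread over the fractions. From monosome to polysome, Prkar1a rose most, by 2.34 ± 0.12 on the log2 scale in LoF controls (edgeR adjusted p = 1.03e-12) and 2.46 ± 0.11 in T532M controls. It had 105, 131 and 111 CPM in LoF control monosomes and 561, 611 and 578 in polysomes. Prkacb rose by 1.81 ± 0.12 and 1.79 ± 0.12, from 57.3, 69.7 and 59.5 CPM to 211, 227 and 218 in the LoF controls. The libraries of the fractions lay far apart for both genes.

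Prkar1b rose by 0.93 ± 0.20 and 0.92 ± 0.28, Gnb4 by 0.86 ± 0.11 and 0.88 ± 0.13, Prkar2b by 0.50 ± 0.14 and 0.55 ± 0.16 and Prkar2a by 0.45 ± 0.13 and 0.30 ± 0.13 in LoF and T532M controls. Prkar2a in T532M controls (edgeR adjusted p = 0.0403) passed in only 2 of 6 fits that left out a pool. Gnb1 fell by 0.51 ± 0.13 and 0.57 ± 0.11, from 947, 874 and 877 CPM to 562, 709 and 621 in LoF controls. Prkaca fell by 0.34 ± 0.14 and 0.46 ± 0.09, from 109, 101 and 101 to 76.5, 91.6 and 77.8 CPM. The LoF value for Prkaca (edgeR adjusted p = 0.0384) passed in 3 of 6 such fits, and under DESeq2 and RLE size factors it did not pass. Gnb5 (0.18 ± 0.09 and 0.08) and Gnb2 (0.64 ± 0.35 and -0.21 ± 0.39) did not pass in either cross. With DESeq2 and with RLE size factors Gnb5 passed as higher in LoF controls (0.27 with either, edgeR adjusted p = 0.0114 with RLE size factors), which made 7 genes higher and 1 lower.

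So 6 of the 10 rose and 2 fell in each cross, beside 36.4% of all genes called higher and 44.9% lower in LoF controls and 36% and 43.9% in T532M controls. The members' median was 0.57 and 0.43, that of all genes -0.31 in both crosses, and 8 of the 10 lay above the latter. Prkaca in LoF controls, at -0.34, was thus close to the median gene. Scaling by library size alone moved the median of all genes to -1.13 (LoF) and -1.28 (T532M). It turned Gnb2, Gnb5, Prkar2a and Prkar2b below 0 in the LoF cross (-0.19, -0.63, -0.36 and -0.31) and Gnb4, Gnb5, Prkar1b, Prkar2a and Prkar2b in the T532M cross (-0.077, -0.89, -0.034, -0.69 and -0.41). Members called were then 2 higher and 4 lower in LoF and 2 higher and 6 lower in T532M controls, and the split over all genes went from 6746 higher and 8330 lower to 4510 and 11179 in LoF, and from 6570 and 8012 to 3930 and 11317 in T532M. Prkar1a and Prkacb were called higher, and Gnb1 and Prkaca had negative values, under every scaling run.

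The catalytic pair therefore parted, with Prkaca near or below the median gene and Prkacb among the mRNAs that rose. Among regulatory subunits, type I alpha rose by 2.34 and 2.46 and those of type II by 0.30 to 0.55. Against input, polysomes of LoF controls had 4 members higher (Prkacb, Prkar1a, Prkar2a, Prkar2b) and 3 lower (Gnb1, Gnb5, Prkaca), beside 36.5% and 42.8% of all genes. With the pool as a block Gnb2 passed as lower too (-0.67, edgeR adjusted p = 0.0483). In T532M controls the same 4 were higher and 4 lower, Gnb2 added, beside 36.6% and 42.4%. With library size alone 0 were higher in either cross, and 8 and 7 were lower. Over all genes this scaling called 4570 higher and 10957 lower in LoF controls, and 4414 and 10702 in T532M controls. Monosomes against input had 0 higher and 7 lower in LoF controls, beside 32.2% and 30.6%, and 1 higher (Prkar2a) and 8 lower in T532M controls, beside 32.1% and 31%.

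Other genes of the pathway were read from 7 lists with 83 genes, 74 of them tested. Among all genotype comparisons 1 of the 74 passed, in T532M monosomes: Gnai2, an inhibitory alpha subunit, had 174 to 211 CPM in controls and 277 to 309 in cHet (0.61 ± 0.11, edgeR adjusted p = 0.00932). That 1 of 74 stands beside 188 of 18243 genes called in that comparison, a share near the background. In LoF monosomes Gnai2 had 199 to 208 CPM in controls and 196 to 313 in cHet (0.30 ± 0.15, edgeR adjusted p = 1.00). The T532M call was lost without cHet pool 1 (adjusted p = 0.0653), cHet pool 2 (0.0883), control pool 1 (0.103) or control pool 3 (0.133).

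Between the fractions of LoF controls 34 of the 74 rose from monosome to polysome and 25 fell, and in T532M controls 34 and 26. Of all genes, 36.4% were called higher and 44.9% lower in LoF controls, and 36% and 43.9% in T532M controls. The counts by list below stand beside these shares. Those with library size alone stand beside 4510 of 18556 genes higher and 11179 lower in LoF controls. In T532M controls that scaling gave 3930 of 18243 genes higher and 11317 lower. No list was tested as a set. All 8 G gamma and other beta genes tested by edgeR fell in both crosses, with TMM, RLE factors and library size alone. DESeq2 tested 10 and called 8 lower in each cross. The edgeR median was -2.29 in LoF controls: Gng5, which encodes a gamma subunit, fell by 4.44 ± 0.19 and Gng3, a neuronal gamma, by 3.06 ± 0.18. Anchoring proteins, which tether PKA through its regulatory subunits, went the other way, with 9 of 11 higher and 2 lower (median 2.11), such as Akap1 at 2.72 ± 0.12 and Akap11 at 2.57 ± 0.17. The inhibitors of the catalytic subunit Pkia and Pkig fell by 3.34 ± 0.16 and 3.24 ± 0.18, in a list of inhibitors and downstream proteins with 3 of 13 higher and 7 lower, while the CREB coactivator Crtc1 rose by 1.93 ± 0.11.

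Adenylyl cyclases had 8 of 10 higher and 1 lower, with Adcy3 at 1.61 ± 0.10, and cAMP phosphodiesterases 7 of 13 higher and 2 lower, with Pde10a at 1.68 ± 0.12. With library size alone these became 4 higher and 3 lower, and 6 higher and 6 lower, in LoF controls. The alpha subunits had 5 of 13 higher and 4 lower, with Gnao1, the alpha o subunit abundant in neurons, at 1.27 ± 0.10 and Gna12 at -1.73 ± 0.10. With library size alone they had 2 higher and 7 lower. The R7 RGS proteins and partners of Gnb5 had 2 of 6 higher and 1 lower, with Rgs9 at 1.19 ± 0.16 and Rgs7bp at -1.42 ± 0.17, and 2 and 3 with library size alone.

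Patterns over the 36 libraries, as Pearson correlations of log2 CPM given as a description, followed the fractions that all points share. Prkacb and Prkar1a were the most alike members (r = 0.954), and Gnb4 lay near Prkar1a (0.88) and Gnb1 near Prkaca (0.856). Prkaca and Prkacb had r = -0.498 and Gnb1 and Prkacb r = -0.773. Among genes with a mean of at least 10 CPM, the closest to Gnb1 were Csnk1e (0.984) and Ppp1cc (0.977), to Prkaca Mtx2 (0.987) and Ubxn1 (0.987), and to Prkacb Stam2 (0.991) and Gdi2 (0.990). For Prkar1a they were Fam50a (0.996) and Cttn (0.996), for Gnb4 Lancl1 (0.958) and Ldhb (0.953), and for Gnb5 Adprhl2 (0.967) and Gsto1 (0.962). Prkar1b was nearest to Nrxn2 (0.951) and Evi5l (0.932), Prkar2a to Cdv3 (0.892) and Ssx2ip (0.885), Prkar2b to Cab39 (0.889) and Gnai1 (0.885), and Gnb2 to Crip2 (0.839) and Yju2 (0.839).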

How the data were processed

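RNA of 36 libraries was counted by the authors. Per the file headers, this used featureCounts 2.0.3 on read pairs, with the whole gene (introns too) as the feature, strand setting 2 (reverse) and GENCODE M25 for GRCm38, and the deposited values are raw counts. The submitters' processing notes also name STAR 2.7.11a, FastQC 0.11.7, Subread 2.0.3 and DESeq2 1.34.0. The authors' deposited tables hold log2 fold changes and p-values, quoted where named; their 36 normalized per-library columns were not used. The gradient fractions joined for each library: not given in the sources used here.

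For each cross, edgeR 4.0.16 (R 4.3.3) was run on 18 libraries: TMM, filterByExpr (18556 and 18243 genes), 6 groups, quasi-likelihood test, Benjamini-Hochberg adjustment, threshold 0.05. Libraries were treated as independent, although the 18 of a cross come from 6 pools. A fit of all 36 tested LoF minus T532M effects. SE is the log2 difference over the root of F. CPM are TMM-scaled. Alternatives were DESeq2 1.42.0, RLE factors, library size alone, no filter, each fraction alone, leaving out pools and blocks. The test was also run on simulated counts. These were drawn independently for each library, so the run cannot show the effect of fractions sharing a pool.

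Members, lists and tests were chosen with earlier results of these data known. All 10 members were named, in pathway lists up to 3 genes with the smallest p among those past the threshold, and for each member the 2 most correlated genes. The T532M monosome comparison, and comparisons using its libraries, are given as description. Numbers pair fractions of a pool: deviations correlated over 0.1 in 10 of 18 LoF and 17 of 18 T532M pairs. Start codon windows of 4 genes and UTR lengths came from GENCODE M21 transcripts, all 10 gene identifiers matching. The windows of the other 6 genes are not reported here.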

Additional observations from a re-analysis of the deposited data

Results flagged for a closer look

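Among the 10 genes, 2 had a genotype effect that differed between fractions by a test of the difference itself. In the T532M cross the change from monosome to polysome was -0.90 on the log2 scale for Gnb1 and -0.72 for Prkaca (edgeR adjusted p = 0.0486 each): cHet against control was 0.70 and 0.53 in monosomes and -0.20 for both in polysomes. By the same test 0.0603% of all genes were called lower in this comparison. For both genes all 3 cHet pools lay below all 3 control pools in the polysome over monosome ratio, as they also did for Prkar2a and Prkar2b. The share of all genes doing so was not computed. Both calls were lost when any pool was left out, while the change stayed between -0.99 and -0.83 for Gnb1 and between -0.79 and -0.68 for Prkaca. The genes were chosen with the T532M monosome values known, and these changes use the same libraries, so the p-values are a description and support nothing further. Groups of 3 were too small for a check of single outlying libraries.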

How the results depend on the processing

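Of 1013 alternative values for 86 log2 differences, 32 reversed; causes were not tested. Library size alone reversed polysome against monosome in LoF controls for Gnb2 (-0.19), Gnb5 (-0.63), Prkar2a (-0.36) and Prkar2b (-0.31), and in T532M controls for Gnb4 (-0.077), Gnb5 (-0.89), Prkar1b (-0.034), Prkar2a (-0.69) and Prkar2b (-0.41). In the T532M polysome over monosome change Prkacb became 0.0353 with DESeq2 and 0.0352 with RLE factors, and Prkar1a 0.0421 and 0.042, and in T532M monosomes fitted alone Gnb4 became 0.012. Leaving out 1 pool reversed small values. In T532M monosomes the range was -0.095 to 0.013 for Gnb4 and -0.35 to 0.029 for Prkar1b, and in LoF monosomes -0.10 to 0.088 for Prkar1a and -0.0035 to 0.13 for Prkar1b. In the T532M polysome over monosome change it was -0.20 to 0.88 for Gnb2, -0.11 to 0.035 for Prkacb, -0.083 to 0.043 for Prkar1a and -0.17 to 0.0061 for Prkar1b, and in that of the LoF cross -0.34 to 0.052 for Prkar1b. It was -0.051 to 1.08 for Gnb2 in T532M polysomes, -0.87 to 0.18 for Gnb2 in T532M controls (polysome against monosome) and -0.055 to 0.13 for Prkar1a in LoF polysomes.

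Members called changed as follows. T532M monosomes had 3, and 0 to 3 without 1 pool. The T532M polysome over monosome change had 2, and 0 with RLE factors, library size alone, no filter, or any pool left out. T532M input had 0, 1 with DESeq2 and without the filter, and 0 to 2 without 1 pool. LoF minus T532M effects in input had 0, 2 with DESeq2, 1 with library size alone and without the filter, and 0 to 1 without 1 pool. The T532M monosome over input change had 0, and 2 with DESeq2, and LoF monosomes 0, and 0 to 2 without 1 pool. LoF controls, polysome against monosome, had 6 higher and 2 lower, and 7 and 1 with DESeq2 and with RLE factors. Over all genes, calls in T532M monosomes went from 188 to 76 to 582 over other settings and 7 to 636 over left-out pools. Those in the T532M polysome over monosome change went from 11 to 0 to 83 and 0, in T532M input from 1 to 0 to 157 and 0 to 543, and in LoF monosomes from 2 to 1 to 33 and 1 to 180. LoF input had 0, and 0 to 967 over other settings, T532M polysomes 0, and 0 to 58, and LoF minus T532M input 2, and 2 to 1163. The T532M monosome over input change had 1, and 1 to 42.

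By their labels, equal pool numbers across genotypes share only a number. Deviations of such pairs correlated over 0.1 in 1 of 9 LoF pairs (median r = -0.198) and 7 of 9 T532M pairs (0.289). Fractions of the same pool had a median of 0.323 in the T532M cross. Whether pools of equal number shared a batch was not tested. A replicate block by that number kept the 3 member calls in T532M monosomes, while calls over all genes went from 188 to 349. A block by pool across fractions changed 1 member call, Gnb2 in polysomes against input of LoF controls (-0.63 to -0.67, edgeR adjusted p = 0.0861 to 0.0483).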

Other observations

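Prkar1b differed widely between pools of a group. In T532M controls it had 70.1, 30.5 and 67.0 CPM in input, 34.1, 22.2 and 39.03 in monosomes and 72.5, 36.3 and 71.5 in polysomes, with pool 2 lowest each time. In the LoF cross the highest value among controls was that of pool 2 in all fractions (65.8 CPM in input and 77.8 in polysomes), and in cHet that of pool 1 (67.5 and 82.7).

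In input, the lowest Prkar2a level of the T532M cross was that of control pool 1 (64.8 CPM), which also had the lowest Ddx3x level (50.1), and in the LoF cross that of cHet pool 1 (68.4 CPM), with the lowest Ddx3x level there (62.8). These libraries were picked after their values were seen.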
